A study of Danio rerio with 6 samples.

Results

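The melanin-concentrating hormone (MCH) receptor genes were followed in RNA of the adult zebrafish olfactory epithelium. They were found by name in the table of counts, where mchr1b (ENSDARG00000022525) and mchr2 (ENSDARG00000036117) were present, so 2 of 33737 genes carried 1 of the 3 names sought. The third name, mchr1a, stood beside no gene in this table and that receptor was not analysed here. The gene mchr1b was chosen because each of the 3 PEA libraries held more of its reads than each of the 3 control libraries, and its difference between the groups is therefore given as a description without a test. Its relatives were chosen by name. A further receptor gene of the family, listed as MCHR2 (1 of 2) (ENSDARG00000007842), was added after the table was seen. A current gene name table gives mchr2 the symbol mchr2b, and it gives MCHR2 (1 of 2) the symbol MCHR2. Fish of the PEA group, of a wild-type line derived from AB, were given the rose-scented odorant phenylethyl alcohol daily over their first 3 weeks, and fish of the control group, of the same line, received distilled water in the same way. Both groups were then kept in a recirculating system until an age of 6 months, as the sample labels state, whereas the study's methods name an older age for its adults in general. The labels speak of 10 fish per group and of biological triplicates, without saying whether each library holds that number, so p-values measure the spread between these libraries. No gene was altered in either group, and the comparison asks how the adult tissue differs after early exposure to the odorant.

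MCH is a cyclic peptide made from the precursor encoded by pmch. In fish it pales the skin by drawing pigment granules together in melanophores, and in mammals it is released by neurons of the lateral hypothalamus and promotes feeding and sleep. Its receptors are G protein-coupled receptors of the rhodopsin class. In mammals MCHR1 signals through Gi, Go and Gq proteins and sits on the primary cilium of neurons, whereas MCHR2 signals through Gq and is missing from rodents. Zebrafish have several copies of both kinds and a second ligand gene, pmchl. No sequences of these receptors were at hand, so none is shown.

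The libraries held 43590575 to 46153505 counts in the PEA group and 45153814 to 49085973 counts in the control group. At these depths 3 counts of a gene, the upper limit that a count of 0 allows, correspond to 0.0635 to 0.0697 CPM (counts scaled to TMM-adjusted library sizes) in PEA and 0.0586 to 0.0695 CPM in control libraries. Intervals below cover counting error only. The olfactory marker protein gene ompb, which marks the sensory neurons of the labelled tissue, had 15380, 15825 and 18200 counts in PEA 1 to 3, against 13843, 18477 and 17171 in control 1 to 3. PEA 1 and control 1 stood apart in fkbp5, a glucocorticoid target with 71344, 13386 and 15213 counts in PEA 1 to 3 against 61019, 5078 and 5009 counts in control 1 to 3. Over all 20628 genes tested, edgeR's quasi-likelihood test with Benjamini-Hochberg adjustment called 0 genes at an adjusted p under 0.05 (0%), with 342 (1.66%) at an unadjusted p under 0.05, and DESeq2 called 5 of 27192 (0.0184%). The adjusted p from edgeR was 1.00 for every pathway, marker and neighbouring gene named below that passed the low-count filter, and differences on the log2 scale are its fitted fold changes of PEA over control.

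Reads of mchr1b numbered 34, 44 and 103 in PEA 1 to 3, against 0, 9 and 15 in control 1 to 3. Every PEA library lay above every control library, PEA 3 was far above the other PEA libraries, and control 1 held no read. Scaled to depth, the gene was at 0.773, 1.02 and 2.18 CPM in PEA 1 to 3 and at 0, 0.176 and 0.301 CPM in control 1 to 3. The group means were 1.33 ± 0.752 CPM in PEA and 0.159 ± 0.151 CPM in control libraries (SD, n = 3 each), a ratio of 8.33. The log2 fold change fitted by edgeR was 3.00, given without a test because these counts chose the gene. The 0 in control 1 still allows up to 0.0695 CPM. In bulk tissue, more cells with the receptor and more receptor RNA per cell cannot be told apart.

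**Figure D1:**
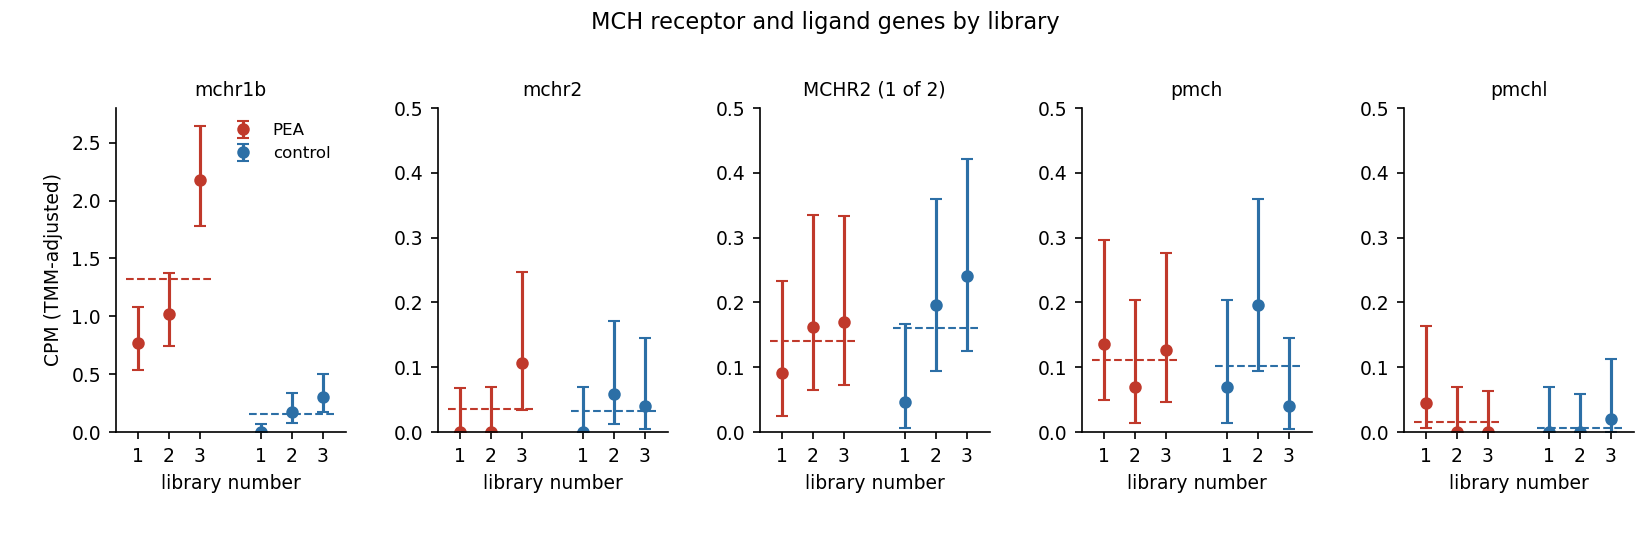
CPM of mchr1b, mchr2, MCHR2 (1 of 2), pmch and pmchl in each library (points, PEA in red on the left, control in blue on the right), with exact 95% Poisson intervals of counting (a limit of 3 counts where no read was found) and the group mean as a dashed line. The vertical scale of mchr1b is larger than that of the other genes. Its PEA points (0.773 to 2.18 CPM) lie above its control points (0 to 0.301 CPM), and in the other genes the groups overlap.

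The closest libraries across the groups were PEA 1 with 34 reads and control 3 with 15, a ratio of 2.56 in CPM. Their exact 95% Poisson intervals were 0.535 to 1.08 CPM in PEA 1 and 0.169 to 0.497 CPM in control 3, values that describe the counting error of each library and test nothing between the groups, since the order of these counts chose the gene. In the order of the levels, control 2 and control 3 overlapped in their intervals, and so did PEA 1 and PEA 2. PEA 3, at 1.78 to 2.65 CPM, stood above the interval of PEA 2, at 0.743 to 1.37 CPM. PEA 3 gave 56.9% of the mchr1b reads of its group, and without it the ratio of the group means was 5.64. Against the control library with the same number, mchr1b was 5.81 times higher in PEA 2 and 7.24 times higher in PEA 3, and PEA 1 exceeded control 1 by 0.773 CPM. The numbers were not taken to pair the libraries, and these values are a description only.

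Among the genes tested, 0.63% had more reads in all PEA libraries than in all control libraries, and 8.4% had fewer. After scaling to depth these shares were 2.56% and 2.94%, with PEA libraries on the whole the shallower ones. Among the 3021 genes with a mean count within 2-fold of that of mchr1b (34.2 per library), 1.52% had more reads in all PEA libraries. These shares are given as background only, because that pattern chose mchr1b. Of the genes tested 3, mchr1b included, had a fitted log2 fold change of at least that of mchr1b, a place that its choice by these same counts favours. The gene was one of few reads, with 87.3% of the tested genes above it in mean CPM, a scale that takes no account of gene length. It passed the low-count filter through the PEA libraries and control 3, which were the libraries with at least 10 reads.

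Within groups mchr1b had a coefficient of variation of 56.7% among PEA libraries, with 181 reads in all, and of 95.2% among control libraries, with 24 reads in all. In 3020 other genes with a mean count within 2-fold of its own, the median was 25.3% in PEA and 24.1% in control libraries. Of these genes, 6.36% had a higher coefficient than mchr1b in PEA and 0.629% in control libraries. They were matched on the mean of all 6 libraries, not on the few control reads of mchr1b. With each library left out in turn the fitted log2 fold change ran from 2.43 without PEA 3 to 3.79 without control 3, and it was 2.47 without control 1. Without both libraries numbered 1, which had the highest fkbp5 counts, it was 2.75. The libraries left still differed in fkbp5, with 13386 and 15213 counts in PEA 2 and 3 against 5078 and 5009 in control 2 and 3. In that setting edgeR called fkbp5, so its level and the exposure cannot be told apart there.

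**Figure D2:**
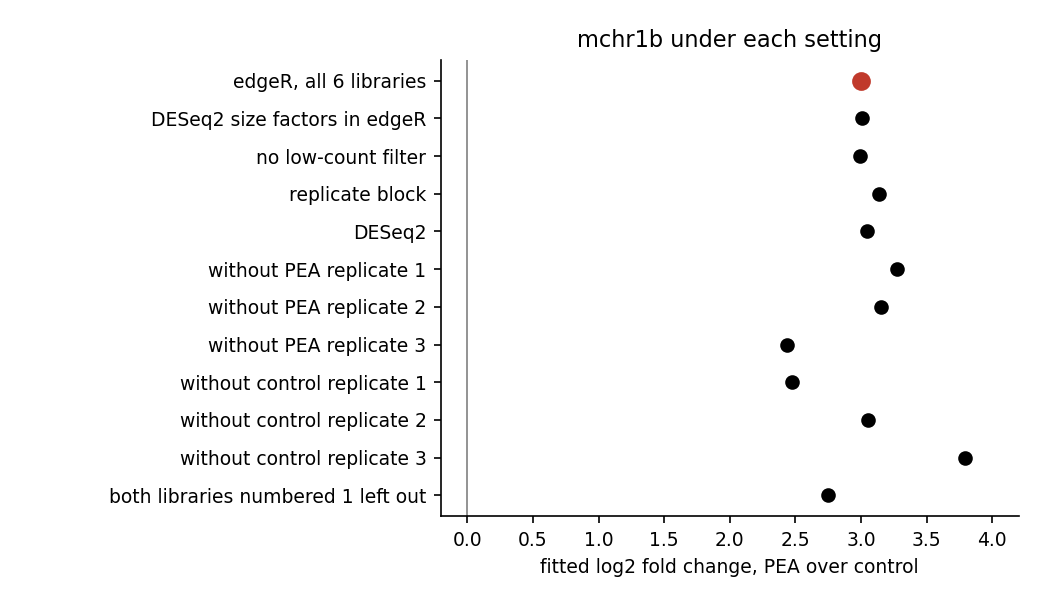
Fitted log2 fold change of mchr1b (horizontal axis, PEA over control) under each setting of the processing (rows), with edgeR on all 6 libraries in red and the alternatives in black. The values run from 2.43 without PEA 3 to 3.79 without control 3.

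In the other receptors of the family the groups overlapped. Reads of mchr2 numbered 0, 0 and 5 in PEA 1 to 3, against 0, 3 and 2 in control 1 to 3. The groups overlapped, each held 5 reads in all, and a difference was not detectable at this depth. The mean of mchr2 was 0.0353 ± 0.0611 CPM in PEA and 0.0329 ± 0.0300 CPM in control libraries (SD, n = 3 each), a difference of 0.00235 CPM. It lay below the low-count filter, and no fold change is given because both groups were under the limit of 3 counts on average. The receptor MCHR2 (1 of 2) had 4, 7 and 8 reads in PEA 1 to 3, against 2, 10 and 12 in control 1 to 3. Its groups overlapped too, with both the lowest and the highest library in the control group. Without the low-count filter edgeR put it at -0.22 on the log2 scale (SE 0.61, adjusted p = 1.00), and DESeq2 at -0.19 (SE 0.88, adjusted p = 1.00). How the counting treated reads that match several related receptors is not stated, so their values carry that uncertainty.

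Within each library the reads of mchr1b can be set against those of MCHR2 (1 of 2). There were 8.50, 6.29 and 12.9 reads of mchr1b for each read of MCHR2 (1 of 2) in PEA 1 to 3, against 0, 0.900 and 1.25 in control 1 to 3. The order of these ratios repeats the choice of mchr1b over a denominator of 2 to 12 reads and is no separate result, and without gene lengths the ratios do not say which receptor was the more abundant. Of the reads of the 3 receptor genes together, mchr1b made up 86.3% to 89.5% in PEA libraries and 0% to 51.7% in control libraries. The total of the 3 genes was 38, 51 and 116 reads in PEA 1 to 3, against 2, 22 and 29 reads in control 1 to 3. Both the share and the total include the mchr1b reads that chose the gene and are no separate result.

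The ligand genes were hardly detected. The MCH precursor gene pmch (ENSDARG00000073959) had 6, 3 and 6 reads in PEA 1 to 3, against 3, 10 and 2 in control 1 to 3. The 15 reads of each group overlapped fully, and edgeR without the low-count filter gave 0.10 on the log2 scale (SE 0.68, adjusted p = 1.00). The second precursor gene pmchl (ENSDARG00000076978) had 2, 0 and 0 reads in PEA 1 to 3, against 0, 0 and 1 in control 1 to 3. Both ligand genes lay below the low-count filter.

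Genes beside mchr1b were examined for a change along the chromosome, a choice made after the data were seen. In the RefSeq annotation of the assembly GRCz12tu, which is not the Zv9 build of the counts, no annotated gene overlapped mchr1b. The nearest protein-coding genes with a symbol of their own were grb2b, an adaptor of receptor tyrosine kinases, on one side and usp43b, a ubiquitin-specific protease, on the other. The adaptor grb2b had 3892, 4192 and 3804 counts in PEA 1 to 3, against 3630, 4159 and 4202 in control 1 to 3, a difference of 0.09 on the log2 scale (SE 0.10). The protease usp43b had 102, 157 and 106 counts in PEA 1 to 3, against 100, 140 and 181 in control 1 to 3, a difference of -0.08 on the log2 scale (SE 0.26). In both the groups overlapped. The next genes outward, bptf, a subunit of a chromatin remodelling complex, and pik3r6b, a regulatory subunit of phosphoinositide 3-kinase, had differences of -0.23 (SE 0.12) and 0.36 (SE 0.23) on the log2 scale, with overlapping groups. All PEA libraries lay on one side of all control libraries in 0 of the 4 neighbours, where 2.56% of all genes tested lay above and 2.94% below in CPM, so that this count is near the background.

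**Figure D3:**
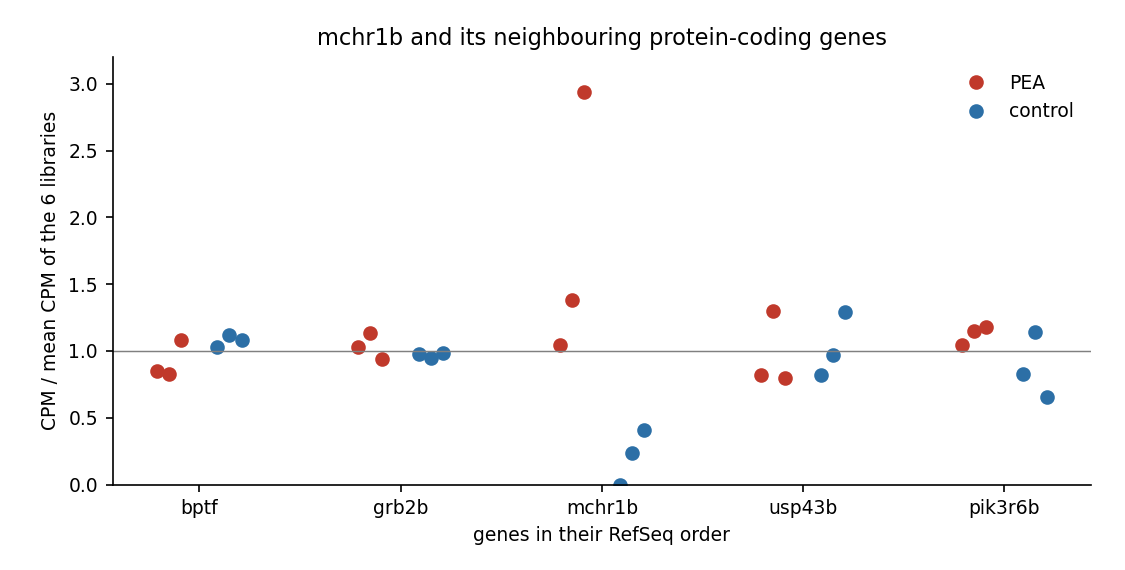
CPM of mchr1b and its neighbouring protein-coding genes in each library, divided by the gene's mean over the 6 libraries (vertical axis), with genes in their RefSeq order along the horizontal axis and PEA libraries (red) left of control libraries (blue). The groups overlap in the 4 neighbours, and they do not in mchr1b, which was chosen for that (2.56% of all genes tested lay above and 2.94% below in CPM).

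The signalling genes that MCH receptors are known to use in mammals were expressed in the tissue of both groups. Of 13 alpha subunits of Gi, Go and Gq proteins tested, edgeR called 0 in either direction (0% over all genes), and their median log2 fold change was -0.02 beside a median of -0.00 over all genes tested. The Go subunit gnao1b was at 566 ± 23.2 CPM in PEA and 572 ± 29.0 CPM in control libraries, and the Gi subunit gnai1 at 144 ± 12.8 CPM in PEA and 139 ± 12.1 CPM in control libraries (SD, n = 3 each). The members with the lowest p were gna14, a subunit of the Gq family, with a log2 fold change of 0.21 (SE 0.13), and the Gi subunit gnai2b, with -0.18 (SE 0.12).
Of 9 phospholipase C beta and adenylyl cyclase genes tested, 0 were called, with a median log2 fold change of -0.03. The phospholipase plcb3, an effector of Gq, was at 110.1 ± 11.7 CPM in PEA and 112.0 ± 5.48 CPM in control libraries (SD, n = 3 each). The cyclase adcy3b, an enzyme that odorant receptors use, had a difference of -0.10 (SE 0.21) on the log2 scale. The cyclases adcy2b and adcy6b had differences of -0.23 (SE 0.16) and 0.18 (SE 0.22) on the log2 scale. In adcy2b, 1 of the 9, all PEA libraries lay below all control libraries in CPM, as in 2.94% of all genes tested.
Of 8 genes for desensitization and receptor partners tested, 0 were called, with a median of 0.03. The arrestin arrb2b was at 114 ± 5.64 CPM in PEA and 120 ± 4.78 CPM in control libraries, and rgs8, whose product shortens Gi and Go signals, at 57.4 ± 6.91 CPM in PEA and 61.0 ± 3.23 CPM in control libraries (SD, n = 3 each). The receptor kinases grk6 and grk5 had differences of 0.12 (SE 0.10) and 0.20 (SE 0.21) on the log2 scale.
Of 13 genes that carry receptors into cilia tested, 0 were called, with a median of 0.00 and a range of -0.09 to 0.13. The ciliary transport gene ift88 had a difference of -0.09 (SE 0.12) on the log2 scale, and ift140 at 102 ± 4.15 CPM in PEA and 104 ± 5.54 CPM in control libraries (SD, n = 3 each). The BBSome genes bbip1 and bbs7 had differences of 0.13 (SE 0.10) and -0.09 (SE 0.09) on the log2 scale.

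**Figure D4:**
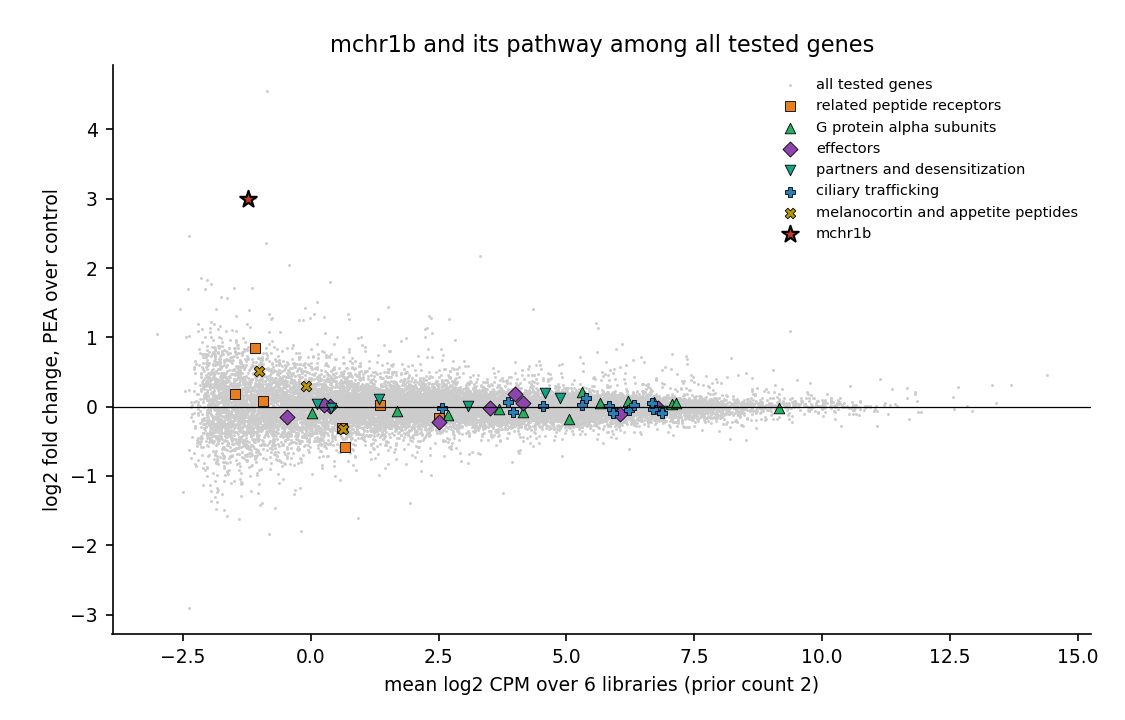
Log2 fold change (vertical axis, PEA over control) against mean log2 CPM over the 6 libraries (horizontal axis) for all 20628 tested genes (grey), the tested genes of the pathway lists (coloured symbols) and mchr1b (star). The ciliary genes lie between -0.09 and 0.13, and the related peptide receptors, which have fewer reads, between -0.58 and 0.85. The star of mchr1b, a gene chosen for its difference between the groups, lies at 3.00.

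Receptors of neighbouring peptide families, also genes of few reads, were compared in the same way. Of 15 somatostatin, opioid, galanin, neuropeptide B/W, kisspeptin and urotensin receptor genes in the table, 4 had no reads in any library and 7 were tested. Of these 7, edgeR called 0, the median log2 fold change was 0.03, and the range was -0.58 to 0.85. The somatostatin receptor sstr3, which in mammals also sits on cilia, had 240, 190 and 295 counts in PEA 1 to 3, against 239, 342 and 287 in control 1 to 3, a difference of -0.16 on the log2 scale (SE 0.17). The opioid receptor oprd1b had 46, 20 and 15 counts in PEA 1 to 3, against 19, 15 and 14 in control 1 to 3, a difference of 0.85 on the log2 scale (SE 0.48). Its highest value was that of PEA 1, without which the difference was 0.22, and it was 1.16 without PEA 3, which lay within the range of the control libraries. The nociceptin receptor oprl1 and the neuropeptide B/W receptor npbwr2a had differences of 0.03 (SE 0.22) and -0.30 (SE 0.26) on the log2 scale. In 0 of the 7 did all PEA libraries lie on one side of all control libraries, a count near the background of 2.56% above and 2.94% below over all genes tested.

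Genes of the melanocortin system, whose hormones darken fish skin where MCH pales it, mostly lay below the low-count filter. Of its 11 genes in the table only mc5ra, a melanocortin receptor, was tested, with 152, 25 and 19 counts in PEA 1 to 3, against 118, 23 and 23 in control 1 to 3. Its high libraries were PEA 1 and control 1, the same that were high in fkbp5, and its difference was 0.30 on the log2 scale (SE 0.92), with -1.29 without PEA 1 and 1.69 without control 1. Of 13 hypothalamic and appetite peptide genes in the table, 2 were tested and edgeR called 0 of them. Neuropeptide Y, npy, had 78, 39 and 69 counts in PEA 1 to 3, against 97, 63 and 86 in control 1 to 3, a difference of -0.33 on the log2 scale (SE 0.32). The thyrotropin-releasing hormone gene trh had 36, 23 and 17 counts in PEA 1 to 3, against 23, 24 and 10 in control 1 to 3, a difference of 0.51 on the log2 scale (SE 0.45).

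Markers of cells that could carry the receptor were compared between the groups. Summed over 11 melanophore genes found of 13 sought, the level was 36.8 to 42.5 CPM in PEA and 35.6 to 43.6 CPM in control libraries. Most of that sum came from kita, a receptor also used by other cells, with 1409, 1272 and 1525 counts in PEA 1 to 3, against 1124, 1532 and 1617 in control 1 to 3. The pigment cell gene pmela was at 4.08 ± 0.654 CPM in PEA and 4.51 ± 0.351 CPM in control libraries (SD, n = 3 each). The melanin enzyme tyrp1b had a difference of -0.52 on the log2 scale (SE 0.25). Xanthophore genes (3 found of 7) summed to 1.98 to 2.58 CPM in PEA and 2.16 to 2.91 CPM in control libraries, and iridophore genes (6 of 7) to 73.1 to 82.3 CPM in PEA and 65.9 to 78.3 CPM in control libraries. Most of the iridophore sum came from impdh1b and alx4a, at 41.6 and 27.4 CPM on average, with pnp4a at 1.53 and ltk at 1.55. The sums of all 3 pigment cell lists thus overlapped between the groups. In aox5, 1 of 2 xanthophore genes tested, all PEA libraries lay below all control libraries in CPM (-0.56 on the log2 scale, SE 0.29). In ednrba, 1 of 6 iridophore genes tested, all lay above (0.20, SE 0.25). Over all genes tested these shares were 2.94% below and 2.56% above.
Brain neuron genes (11 found of 11) summed to 402 to 455 CPM in PEA and 405 to 426 CPM in control libraries, most of it from snap25a and slc17a6b, which olfactory sensory neurons also use. The inhibitory neuron transporter slc32a1 had 1, 0 and 0 reads in PEA 1 to 3, against 0, 4 and 0 in control 1 to 3. Other brain neuron genes had more reads, with 15240 for tbr1b, 241 for gad1b and 233 for eomesa over all libraries. On the log2 scale the difference was -0.15 (SE 0.12) for tbr1b, 0.49 (SE 0.33) for gad1b and -0.37 (SE 0.30) for eomesa. In each of these genes the groups overlapped. Pituitary hormone genes (8 found of 9) summed to 6.29 to 8.04 CPM in PEA and 5.28 to 6.90 CPM in control libraries, nearly all from cga, the common glycoprotein hormone subunit, and the growth hormone and prolactin genes gh1 and prl had 2 and 12 reads over all libraries. Olfactory sensory neuron genes (8 found of 12) summed to 1343 to 1475 CPM in PEA and 1303 to 1400 CPM in control libraries, skeletal muscle genes (8 of 8) to 10.5 to 13.7 CPM in PEA and 11.1 to 17.9 CPM in control libraries, and B cell genes other than immunoglobulins (5 of 8) to 25.1 to 30.3 CPM in PEA and 22.4 to 26.4 CPM in control libraries. In the muscle gene actn3a, 1 of 7 tested, all PEA libraries lay below all control libraries in CPM (-0.29 on the log2 scale, SE 0.23). In the B cell gene blnk, 1 of 5 tested, all lay above (0.25, SE 0.14). These shares over all genes tested were 2.94% below and 2.56% above.
The skin keratinocyte sum, the mitochondrial share and 1 immunoglobulin gene, given below, also separated the groups. The skin keratinocyte sum was lower in PEA libraries, and the other measures were higher. Whether the reads of the keratinocyte genes came from skin or from the olfactory organ itself was not tested. Of all genes tested, 2.56% lay above and 2.94% below in all PEA libraries in CPM. Skin keratinocyte genes (8 found of 10) summed to 3985 to 4167 CPM in PEA and 4469 to 4692 CPM in control libraries. The largest part came from the keratin gene krt5, at 1960 ± 251 CPM in PEA and 2371 ± 121 CPM in control libraries (SD, n = 3 each). The difference of krt5 was -0.28 on the log2 scale (SE 0.11), and its groups overlapped. The difference was -0.004 (SE 0.13) for krt4 and 0.09 (SE 0.13) for evpla, the only 1 of 7 tested genes above 0. The lowest of the 7 was cyt1l, at -0.54 (SE 0.31). In cyt1l, 1 of the 7, all PEA libraries lay below all control libraries in CPM, as in 2.94% of all genes tested. Mitochondrially encoded genes held 7.48%, 9.68% and 7.25% of the counts in PEA 1 to 3, against 6.23%, 6.81% and 6.91% in control 1 to 3. The immunoglobulin gene ENSDARG00000096355 was at 36.3, 46.4 and 21.0 CPM in PEA 1 to 3, against 15.5, 8.41 and 15.3 CPM in control 1 to 3. This gene was chosen with its values known and was among the 5 genes that DESeq2 called. Among PEA libraries the mitochondrial share and the immunoglobulin gene were highest in PEA 2 and lowest in PEA 3, where mchr1b was highest. Among control libraries the mitochondrial share rose from control 1 to control 3, as the mchr1b reads did, and the immunoglobulin gene was lowest in control 2. The skin keratinocyte sum was highest in PEA 3 among PEA libraries, and it fell from control 1 to control 3. The part of these measures in the level of mchr1b was not tested.

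**Figure D5:**
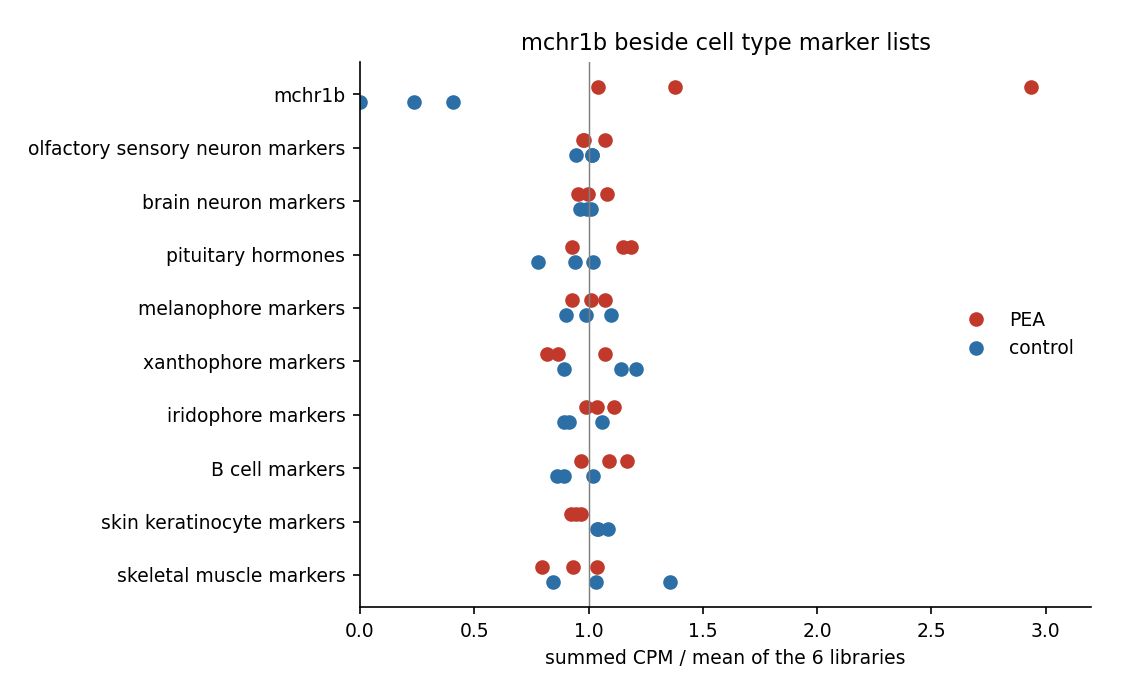
CPM of mchr1b and summed CPM of 9 marker lists in each library, divided by the mean over the 6 libraries (horizontal axis), with PEA libraries (red) above control libraries (blue) in each row. The groups do not overlap for mchr1b, which was chosen for that, or for the skin keratinocyte genes (3985 to 4167 CPM in PEA, 4469 to 4692 CPM in control). The largest part of that sum is krt5, in which the groups overlap. They overlap for the other 8 lists.

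Of 17225 named genes tested, the 5 whose log2 CPM followed that of mchr1b most closely over the 6 libraries had a Pearson r of 0.974 to 0.990, and 27 genes reached an r of 0.95. With 6 libraries and this many genes such values are a description of these libraries only. The gene si:dkey-7i4.14 (r = 0.990) had 13, 14 and 17 counts in PEA 1 to 3, against 9, 13 and 14 in control 1 to 3. The dehydrogenase gene dhrs7 (r = 0.988) had 1311, 1300 and 1442 counts in PEA 1 to 3, against 1152, 1427 and 1433 in control 1 to 3. The other genes were C1H3orf70 (2 of 2) (r = 0.984), nedd9, a scaffold protein of cell adhesion (r = 0.976), and dolk, the dolichol kinase (r = 0.974). All 5 had their lowest count in control 1, the library without mchr1b reads, and without that library their r was 0.939 to 0.977. Their differences between the groups were smaller than that of mchr1b, with log2 fold changes of 0.11 to 0.70. In all 5 every PEA library lay above every control library in CPM, as in 2.56% of all genes tested. Their choice by likeness to mchr1b favours that order, so no test is given for them.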

How the data were processed

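Per the paper and the processing notes of the submitters, read quality was checked in FastQC 0.11.9, adapters were removed by Trim Galore 0.6.4, Bowtie2 served as aligner on the Zv9 build, and HTSeq 0.11.2 gave the reads of each gene. The annotation release, the strand setting and the handling of multiple alignments are not stated in those texts. The deposited counts are raw counts per gene, left unnormalized by the authors. Another 6 columns of normalized values and the authors' means and fold changes were not used. Groups and library numbers came from the sample titles.

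Genes were tested with edgeR 4.0.16 (R 4.3.3) on all 6 libraries, using TMM factors, filterByExpr and a model of condition alone, by quasi-likelihood F tests with Benjamini-Hochberg adjustment over 20628 genes. SE is the absolute log2 fold change divided by the square root of F. Log2 CPM used a prior count of 2. DESeq2 1.42.0 was the other tool. Scripts were tested on simulated data. Replicate pairs differed by a chi-square of 15.8 to 60.8 per gene, so none was counted as 1 sample. The members and gene lists were chosen with earlier results of these data known. Of 209 list symbols 153 were found, by table name or current symbol. Named genes were those with the highest mean CPM and the lowest p in each list, and those most like mchr1b. Neighbours of mchr1b, slc32a1, tbr1b, gh1, prl, pnp4a, ltk, evpla, fkbp5 and ENSDARG00000096355 fall outside that rule and were chosen with values known. Not every marker gene that the rule gave is named above. Alternatives were the library number as a block, DESeq2 size factors, dropping the filter, a minimum of 10 counts in each library, leaving out each library, both libraries numbered 1 left out, and DESeq2. Raw counts in place of CPM were added after the data were seen.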

Additional observations from a re-analysis of the deposited data

How the results depend on the processing

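The fitted log2 fold change of mchr1b ran from 2.43 to 3.79 with 1 library left out and from 2.75 to 3.14 in the other alternatives that held the gene, a direction that its choice had set, with 3.14 under the replicate block. The filter of at least 10 counts in every library removed it. For mchr2 the difference ran from -0.0328 to 0.0203 CPM with 1 library left out, all within the spread between libraries. The number of genes called by edgeR was 0, with 5 in DESeq2, 1 without both libraries numbered 1 (fkbp5) and 0 to 1 with 1 library left out (zgc:163079 without control 3). The sample titles give each group number to a control and a PEA library. Deviations from the mean of each condition correlated at 0.17, -0.15 and 0.14 between libraries of the same number. The numbers were not taken to pair the libraries, though such correlations cannot settle whether they mark a shared block. The replicate block called 0 genes. Genes in which each PEA library exceeded each control library in CPM numbered 529, and 799 without the low-count filter, 130 in raw counts, 3081 without both libraries numbered 1 and 1172 to 1839 with 1 library left out, where fewer libraries make such an order more frequent. Of 23 pathway genes none was called under any alternative, and 17 of 276 values changed sign. With 1 library left out the log2 fold change ran from -0.32 to 0.055 for adcy3b, from -0.00027 to 0.13 for gnai1, from -0.049 to 0.023 for gnao1b, from -0.0047 to 0.39 for grk5, from -0.072 to 0.0038 for ift140, from -1.29 to 1.69 for mc5ra, from -0.10 to 0.21 for oprl1 and from -0.10 to 0.048 for plcb3. Without both libraries numbered 1 gnao1b was at 0.013 and rgs8 at 0.0012. The few reads of mchr2, MCHR2 (1 of 2), pmch and pmchl limit what could be seen there.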
